A study of Harpegnathos saltator with 12 samples.

Results

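Full loss of orco was read here against loss of 1 copy, in 7 antennal libraries from homozygous orco mutants and 3 from heterozygotes, out of the 12 libraries of the series. The libraries were chosen by the genotype in their labels. Both groups carried the CRISPR/Cas9-made mutant allele of orco, in 2 copies in homozygotes and in 1 copy in heterozygotes, so the comparison holds the presence of the allele fixed and varies whether a working copy was left. All were adult antennae of Harpegnathos saltator, an ant; the labels and methods used here give neither the age of these animals nor the number of ants in a library. The remaining 2 libraries, from wild types, were left out of the main comparison. Of 14407 genes in the count tables, 10678 had a mean count of at least 10 over the 10 libraries and were tested.

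Insect odorant receptors (Or) are ion channels assembled from a tuning subunit, which binds the odorant, and the shared co-receptor Orco, encoded by orco (HsOrco). Most olfactory receptor neurons of an ant antenna express orco with one or few tuning receptors, and they carry these proteins on a modified cilium, the outer dendritic segment. Other antennal neurons use ionotropic receptors (Ir), which have co-receptors of their own, and others again sense touch, vibration, temperature or ammonia. An antenna also holds glia, muscle in its basal segments, cuticle-forming epithelium and the support cells that enwrap each sensillum.

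Gene-assigned counts ran between 5.65 M and 23.2 M in homozygote libraries and between 6.61 M and 11.7 M in heterozygote libraries. Levels are given in CPM, the count of a gene per 1 M gene-assigned reads, with library sizes scaled by the trimmed mean of M values (TMM). In a principal component analysis of log2 CPM, component 1 accounted for 56.2% of the variance and placed the homozygotes between 16.7 and 39.5 and the heterozygotes between −79.1 and −58.5. Homozygote replicate 1 and heterozygote replicate 1 came from sequencing batch 1 and the other 8 libraries from batch 2, and these batch 1 libraries lay apart on component 2 (16.9%). Homozygote replicate 1 was also the library most often far above or far below the other 6 homozygotes, above them in 949 genes and below them in 449. For that library, its batch and its own properties cannot be told apart.

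The orco transcript was at 13.4 to 155 (median 24.1) CPM in homozygote libraries, against 2527, 1655 and 1711 CPM in heterozygote libraries. The groups did not overlap, and the highest homozygote was replicate 5 at 155 CPM, while the other 6 lay at or below 44.5 CPM. The log2 change was −5.46 (SE 0.73, adjusted p = 3.09e-04 in edgeR's quasi-likelihood test, used for every adjusted p here) and −6.16 without homozygote replicate 5. The transcript level thus ordered all 10 libraries as their labels do.

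Homozygotes differed from heterozygotes in 3053 genes, 28.6% of those tested, at an adjusted p under 0.05. Of these, 1994 (18.7% of genes tested) were lower in homozygotes and 1059 (9.92%) were higher. Falls were the larger changes: 846 of the 1994 lower genes changed over 2-fold, against 257 of the 1059 higher ones. Most of the lower genes, 1364, had every homozygote library below every heterozygote library, and 476 of the higher genes had every homozygote above. Over all genes tested, 13.6% had all homozygotes below and 5.09% all above. The median log2 change of all genes tested was −0.03, and 7288 of the 10678 lay within 0.5 of 0. Odorant, ionotropic and gustatory receptors made up little of this by number, since 1704 lower and 1052 higher genes were none of these, with median log2 changes of −0.68 and 0.70. They made up more of the large falls. Of the 846 falls over 2-fold 558 lay outside these families, against 256 of the 257 rises over 2-fold.

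**Figure D1:**
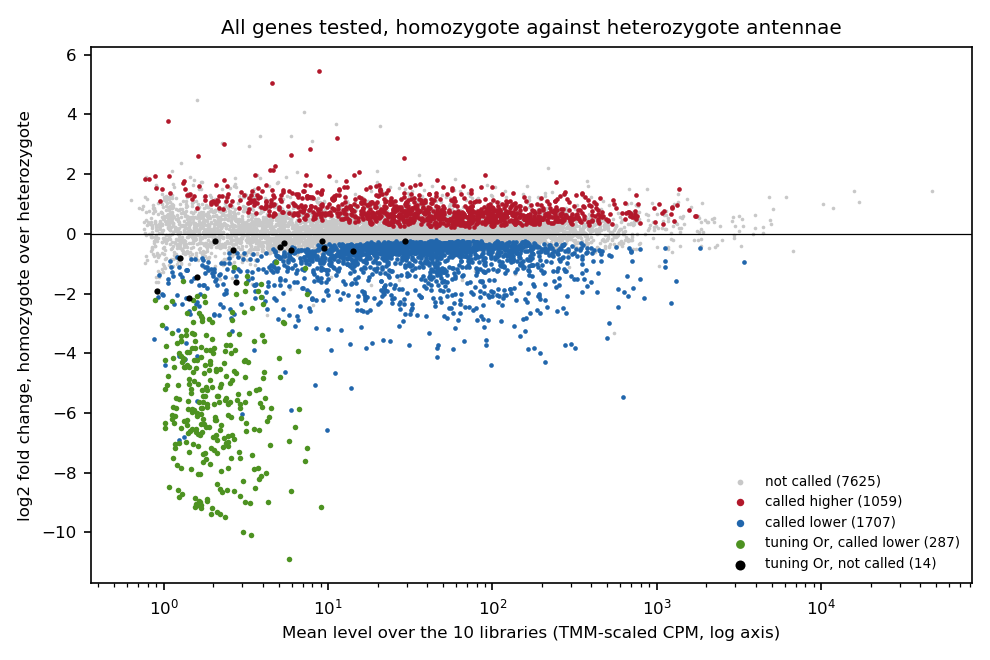
Log2 change of homozygotes over heterozygotes (vertical axis) against the mean CPM over the 10 libraries (horizontal axis, logarithmic) for the 10678 genes tested. Colours separate called tuning Or genes, other called genes and genes not called; the tuning Or genes form a cloud far below 0, and the other called genes spread on both sides, further below 0 than above it.

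The balance of higher and lower genes moved across fits. Under plain library totals, which shifted the median gene by −0.12 on the log2 scale, 458 genes were higher and 2334 lower, and in DESeq2, which also changes the test, 1589 were higher and 1948 lower. The count of higher genes was 663 without heterozygote replicate 1, 561 without heterozygote replicate 2 and 625 without homozygote replicate 1, against 1059 with all libraries. Batch 1 holds 1 library of each genotype, so a fit without either takes its genotype effect from batch 2 alone. Losses without homozygote replicate 1 and without heterozygote replicate 1 are therefore not separate checks, here and below. Fitting batch 2 alone called 669 genes higher and 1734 lower, and in the batch 1 pair, which that fit did not use, 620 of the 669 (92.7%) and 1633 of the 1734 (94.2%) differed in the same direction, where 46.7% of all genes tested lay above 0.

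Nearly every measured tuning Or gene fell. The tables hold 376 of them, 301 passed the count minimum, and 287 of these were lower and none higher (edgeR; none at an unadjusted p under 0.05, and none in DESeq2). Because most passed the minimum on heterozygote reads alone, the 287 describe the measured genes and are not a test of the family. Over all 376, every homozygote library lay below every heterozygote library in 352, and the groups overlapped in 24. Among all 14407 genes in the count tables, every homozygote lay below in 1643. In 166 of the 376 no homozygote library held more than 3 counts, and in 35 all 7 held 0. Summed over the family, homozygotes held 135 to 219 CPM (median 169) and heterozygotes 2697, 2187 and 2005 CPM, with the highest homozygote sum in replicate 5. In a bulk antenna, fewer cells of a type and less RNA per cell cannot be told apart.

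The median log2 change of the tested tuning receptors was −5.53, or −4.35 with genes at or below 3 counts in every homozygote library set to their bound, against −0.03 over all genes tested. Most of these receptors passed the count minimum on heterozygote reads alone, so both medians describe the measured genes and not the family. With no count minimum, the median over all 376 was −5.38. HsOr289 had 0 to 0.147 (median 0) CPM in homozygotes, against a mean of 30.0 ± 4.60 CPM in heterozygotes (SD, n = 3), at least 109.9-fold lower with the floor taken as 3 counts in each homozygote library. HsOr228 had 0 to 0.431 (median 0.0903) CPM in homozygotes, against 28.8, 23.6 and 19.1 CPM in heterozygotes, at least 87.4-fold lower. Neither gene had a homozygote library anywhere near a heterozygote one. HsOr30 had 0 to 0.564 (median 0.0818) CPM in homozygotes, against 19.0, 30.9 and 23.8 CPM in heterozygotes (log2 change −7.16, SE 0.53, adjusted p = 4.54e-06). HsOr139, HsOr141 and HsOr253 had at most 1 count in any homozygote library and heterozygote means of 11.2 ± 1.40, 10.4 ± 0.949 and 7.51 ± 1.43 CPM (SD, n = 3).

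Of the 301 tested tuning receptors 14 were not called, with log2 changes between −2.14 and −0.25. HsOr370 had 18.1 to 34.9 (median 30.0) CPM in homozygotes, against 27.1, 33.0 and 33.8 CPM in heterozygotes. Its groups overlapped, and its log2 change was −0.25 (SE 0.13, adjusted p = 0.179). HsOr161 had 7.28 to 15.5 (median 11.6) CPM in homozygotes, against 32.7, 11.7 and 16.7 CPM in heterozygotes, so that its highest value was heterozygote replicate 1; it was not called (adjusted p = 0.0764) except without heterozygote replicate 2, at a log2 change of −0.79. HsOr247 had 6.03 to 11.3 (median 8.94) CPM in homozygotes and 11.6, 11.6 and 11.1 CPM in heterozygotes (adjusted p = 0.0668), and was called without homozygote replicate 7 (−0.54). HsOr377 was lower by a modest amount, at 4.49 to 6.67 (median 5.57) CPM in homozygotes, against 9.56, 13.2 and 11.5 CPM in heterozygotes. Its groups did not overlap and its log2 change was −1.13 (adjusted p = 2.98e-04).

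The machinery of chemical synapses fell as well. Of 27 tested genes of synaptic vesicle release 19 fell (70.4%, against 18.7% of all genes tested) and none rose in edgeR. Their median log2 change was −0.75, and none rose at an unadjusted p under 0.05 or in DESeq2. nSyb, the vesicle SNARE of neurons, had 180.0 to 317 (median 214) CPM in homozygotes, against 973, 909 and 834 CPM in heterozygotes, with no overlap (log2 change −1.94, SE 0.12, adjusted p = 2.05e-06). unc-13, which primes vesicles for fusion, had 63.3 to 205 (median 95.7) CPM in homozygotes, against 915, 669.5 and 368 CPM in heterozygotes. Its spread within each group was wide, but the groups stayed apart (log2 change −2.47, SE 0.20). brp, a scaffold of the active zone, and the synaptotagmins Syt4 and Syt1, calcium sensors of release, changed by −1.86, −1.96 and −0.90. Among the 8 genes of the list that were not called, the dynamin shi was at −0.18, the endophilin EndoA at −0.19 and the synaptojanin Synj at 0.05.

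Of 12 tested genes of transmitter synthesis and loading 3 were lower (25%, against 18.7% of all genes tested), and these 3 make up the cholinergic cycle. ChT, which takes choline up into the terminal, had 62.3 to 163 (median 79.2) CPM in homozygotes, against 776, 394 and 297 CPM in heterozygotes (log2 change −2.22, SE 0.13, adjusted p = 1.34e-06). ChAT, which makes acetylcholine from it, had 110.4 to 161 (median 135) CPM in homozygotes, against 608, 497 and 379 CPM in heterozygotes (log2 change −1.77). VAChT, which loads acetylcholine into vesicles, had 92.5 to 154 (median 105) CPM in homozygotes and 304, 202 and 209 CPM in heterozygotes (log2 change −0.97). None of these genes overlapped between groups. Enzymes of dopamine, histamine and octopamine synthesis were not called, with log2 changes of 0.03 for ple, 0.19 for Hdc and 0.26 for Tbh. Of 11 tested genes of neuropeptides and their processing 3 were lower (27.3%, against 18.7% of all genes tested). Among these, 7B2, a chaperone of a prohormone convertase, and Phm, which amidates peptides, changed by −1.46 (adjusted p = 3.30e-04) and −0.72 (adjusted p = 5.56e-04), while none of the 7 peptide precursors tested was called in edgeR (1 was higher at an unadjusted p under 0.05 and 1 in DESeq2).

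Of the 3 higher calls among the transmitter genes (25%, against 9.92% of all genes tested), Gad1 and VGlut rested on 1 library. Gad1, which makes GABA, had 87.2 CPM in homozygote replicate 1 and 0 to 0.0940 CPM in the other 6 homozygotes, against 1.08, 0.0869 and 0.0786 CPM in heterozygotes, and its log2 change of 5.44 (adjusted p = 0.00368) became −0.77 without heterozygote replicate 1, while without homozygote replicate 1 it had too few counts to be tested. VGlut, the vesicular glutamate transporter, had 29.7 CPM in homozygote replicate 1 and 0.993 to 2.49 CPM in the other homozygotes, against 2.16, 0.434 and 0.943 CPM in heterozygotes, and was not called without homozygote replicate 1 (log2 change 1.36) or heterozygote replicate 1 (1.39). unc80, a subunit of the sodium leak channel, showed the same pattern with 50.2 CPM in homozygote replicate 1 and 1.76 to 4.25 CPM in the other homozygotes, against 5.24, 0.521 and 1.57 CPM in heterozygotes, and was not called without homozygote replicate 1 (1.30) or heterozygote replicate 1 (1.33). DAT, the dopamine transporter, had 24.3 to 63.3 (median 46.0) CPM in homozygotes, against 13.4, 27.0 and 35.5 CPM in heterozygotes, with overlap (log2 change 0.66, adjusted p = 0.0264), and was not called without homozygote replicate 1 (0.58) or heterozygote replicate 1 (0.61) or 2 (0.56).

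**Figure D2:**
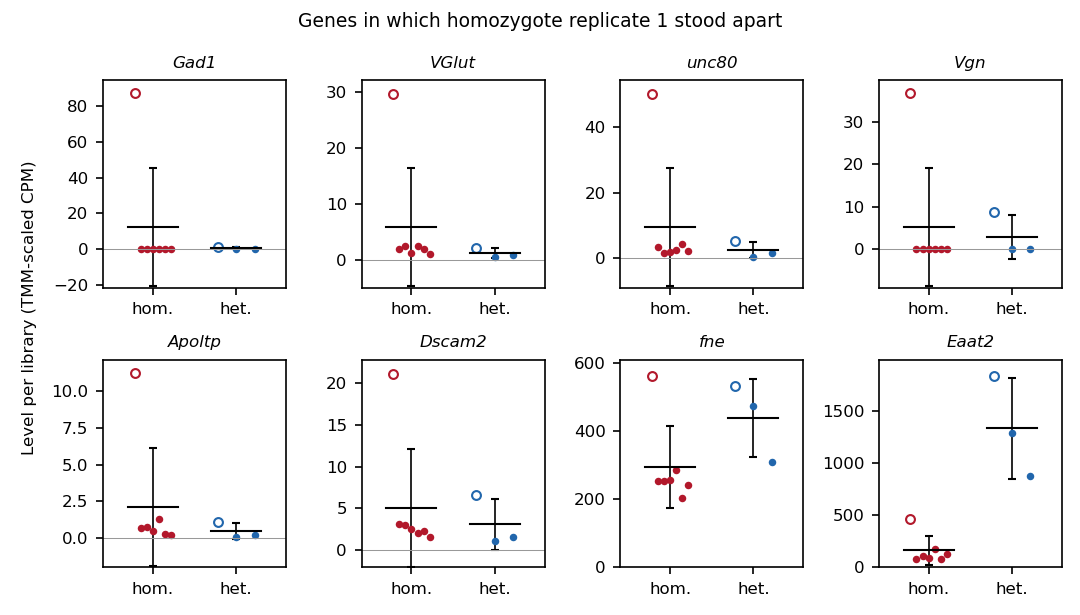
CPM (vertical axis, linear, scaled to each panel) of genes with high values in homozygote replicate 1, in each homozygote (left) and heterozygote (right) library; open circles are batch 1 libraries, filled circles batch 2 libraries, bars the mean and error bars the SD. The open circle of the homozygotes stands above the 6 filled ones, for Gad1 at 87.2 CPM against at most 0.0940 CPM.

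Ion channels that set neuronal excitability fell widely: 20 of 29 tested were lower and 3 higher (69.0% and 10.3%, against 18.7% and 9.92% of all genes tested). Their median log2 change was −1.05, and the number higher was 1 without heterozygote replicate 2 and under library totals scaling and 5 without homozygote replicate 5. Shal, a voltage-gated potassium channel of the cell body and dendrite in Drosophila, had 24.3 to 68.2 (median 29.5) CPM in homozygotes, against 386, 281 and 211 CPM in heterozygotes (log2 change −2.92, SE 0.14, adjusted p = 5.69e-07). SK, a calcium-activated potassium channel, had 15.1 to 49.3 (median 19.8) CPM in homozygotes, against 353, 142 and 143 CPM in heterozygotes (log2 change −2.88, SE 0.11). Heterozygote replicate 1 was the highest library for both, and neither had overlapping groups. Ih, the hyperpolarization-activated cation channel, changed by −2.23, the leak channel Task7 by −2.11 and para, the voltage-gated sodium channel that carries action potentials, by −1.23. cac, the calcium channel that opens at the active zone, fell by 0.76 on the log2 scale (−0.49 and not called without heterozygote replicate 2), whereas the calcium channel genes Ca-alpha1D at 0.51 was not called and Ca-alpha1T at 0.58 was called with overlapping groups (197 to 306 (median 269) CPM in homozygotes, 308, 134 and 153 CPM in heterozygotes, adjusted p = 0.0368). That call was lost without heterozygote replicate 2 (0.42) or 3 (0.53) and without homozygote replicate 2, 3, 4 or 7 (0.54 to 0.58).

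Receptors for transmitters and peptides were split, with 9 of 37 lower and 10 higher (24.3% and 27.0%, against 18.7% and 9.92% of all genes tested). The lower ones included DopEcR, a receptor for dopamine and ecdysone in Drosophila, with 38.1 to 116 (median 45.4) CPM in homozygotes, against 1026, 1194 and 538 CPM in heterozygotes (log2 change −3.82, SE 0.30, adjusted p = 7.07e-06). Both obligate partners of the GABA-B receptor were lower, GABA-B-R2 with 35.5 to 85.0 (median 38.7) CPM in homozygotes, against 679, 379 and 204 CPM in heterozygotes, and GABA-B-R1 with a log2 change of −2.33. In Drosophila, these receptors act at the olfactory receptor neuron terminal. The ionotropic GABA receptor Rdl and the nicotinic subunit nAChRa3 changed by −1.21 and −1.72. Dh31-R, a receptor for a diuretic hormone, had 22.9 to 31.4 (median 26.9) CPM in homozygotes, against 15.7, 10.2 and 16.2 CPM in heterozygotes, without overlap (log2 change 1.01, SE 0.17, adjusted p = 0.00129), and its call held in every fit. The receptor FMRFaR changed by 1.20 and the octopamine and tyramine receptor Oct-TyrR by 0.84. Without homozygote replicate 1 or heterozygote replicate 1 the number of higher receptors was 4.

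Genes that build and serve the sensory cilium fell together. Of 34 tested genes of intraflagellar transport and the ciliary gate, 30 were lower (88.2%, against 18.7% of all genes tested) and none higher in edgeR. Their median log2 change was −1.50, and none was higher at an unadjusted p under 0.05 or in DESeq2. These proteins carry cargo along the cilium and control entry at its base. Oseg1 had 18.9 to 29.1 (median 22.2) CPM in homozygotes, against 125, 108 and 98.1 CPM in heterozygotes (log2 change −2.28, SE 0.13, adjusted p = 1.23e-06). rempA, a part of the retrograde transport complex, had 26.3 to 33.6 (median 29.9) CPM in homozygotes and 102, 106 and 92.7 CPM in heterozygotes (log2 change −1.74, SE 0.09). Spread within both groups was small, and no value of either gene overlapped. BBS4 and BBS5, subunits of the BBSome that moves receptors in and out of cilia, changed by −2.13 and −2.56, and ktub, a tubby protein needed in Drosophila for Or transport into cilia, by −1.64. The exceptions were Rfx, the transcription factor of ciliary genes, at −0.50, and INPP5E, BBIP1 and Cep290 at −0.04, 0.11 and 0.15, none of them called with all libraries. Rfx was called lower without heterozygote replicate 3 (−0.71) or homozygote replicate 2 or 3 (−0.55 in each).

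Genes of motile axonemes, which in insects are used by auditory neurons and sperm, did not move as one. Among 14 tested, 5 were higher and 2 lower (35.7% and 14.3%, against 9.92% and 18.7% of all genes tested), with a median log2 change of 0.36. Gas8 and Rsph3 fell by 2.19 and 1.91 on the log2 scale, Gas8 to 9.84 to 18.3 (median 12.2) CPM in homozygotes, against 80.3, 61.8 and 54.8 CPM in heterozygotes. Dhc98D, a dynein heavy chain, had 5.64 to 18.9 (median 7.94) CPM in homozygotes and 10.8, 1.82 and 4.01 CPM in heterozygotes, which overlapped (log2 change 1.21, adjusted p = 0.0102). tilB, a dynein assembly factor of auditory cilia in Drosophila, had 5.60 to 8.50 (median 7.49) CPM in homozygotes, against 4.63, 2.52 and 4.17 CPM in heterozygotes, without overlap (log2 change 0.95, adjusted p = 0.0111), and was not called without heterozygote replicate 2 (0.65). The number of higher axonemal genes was 1 without that library and 2 without either batch 1 library.

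Mechanosensory genes also went both ways, 5 of 8 higher and 2 lower (62.5% and 25%, against 9.92% and 18.7% of all genes tested). stum, needed for mechanical sensing of joint position in Drosophila, had 16.0 to 23.5 (median 18.4) CPM in homozygotes, against 135, 81.4 and 103 CPM in heterozygotes, with no overlap (log2 change −2.42, SE 0.10, adjusted p = 5.69e-07). eys, which lines the lumen around sensory endings, changed by −0.98 (adjusted p = 1.31e-04). On the other side, iav, a channel of auditory neurons in Drosophila, had 15.2 to 31.2 (median 19.4) CPM in homozygotes and 19.4, 6.08 and 10.9 CPM in heterozygotes, which overlapped (log2 change 1.02, adjusted p = 0.00669). Piezo, a stretch-activated channel, had 83.0 to 130.2 (median 110.1) CPM in homozygotes and 83.9, 58.9 and 72.9 CPM in heterozygotes (log2 change 0.65, adjusted p = 0.00951; 0.51 and not called without heterozygote replicate 2). LOC105188598, a nompC gene of the annotation and the mechanosensory neuron marker used here, changed by 0.78 and was not called without the same library (0.58). The number of higher mechanosensory genes was then 1, as it was under library totals scaling.

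**Figure D3:**
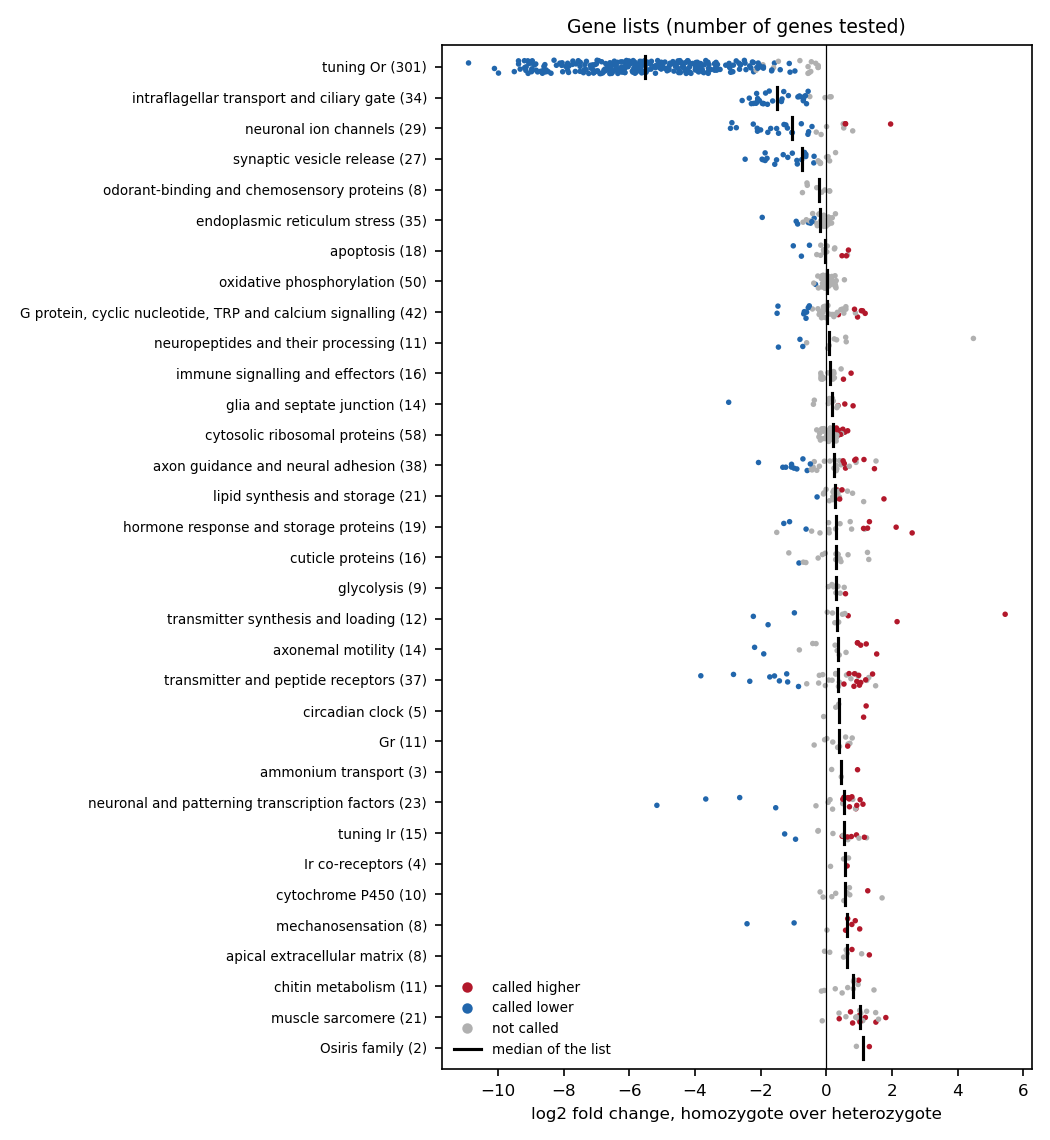
Log2 change of homozygotes over heterozygotes (horizontal axis) for each tested gene of the lists (rows), with calls in colour and the list median as a bar. Ciliary transport, synaptic vesicle release and ion channels lie mostly below 0, with medians of −1.50, −0.75 and −1.05, while oxidative phosphorylation stays near 0.

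Among 23 transcription factors of neurons and patterning, 4 were lower and 11 higher (17.4% and 47.8%, against 18.7% and 9.92% of all genes tested). The 4 that fell did so by more than any that rose. unpg, a homeodomain factor, had 0.191 to 2.49 (median 0.586) CPM in homozygotes, against 61.4, 40.0 and 29.0 CPM in heterozygotes (log2 change −5.16, SE 0.47, adjusted p = 1.67e-05). acj6, a POU factor that selects Or genes in Drosophila, had 1.72 to 5.87 (median 3.63) CPM in homozygotes, against 77.9, 45.7 and 36.3 CPM in heterozygotes (log2 change −3.67, SE 0.27, adjusted p = 4.79e-06). In both genes the highest homozygote stayed far under the lowest heterozygote. onecut and scrt, factors of differentiated and developing neurons, changed by −2.64 and −1.54. vvl, another POU factor, moved the other way and by little, at 186 to 233 (median 228) CPM in homozygotes and 141, 180.3 and 145 CPM in heterozygotes (log2 change 0.50, adjusted p = 0.00927; 0.39 and not called without homozygote replicate 1). Sox102F had 28.0 to 48.0 (median 33.4) CPM in homozygotes, against 27.8, 12.2 and 21.5 CPM in heterozygotes, with the lowest homozygote just above the highest heterozygote (log2 change 0.93, adjusted p = 0.0031), and its call held in every fit. Without homozygote replicate 1, heterozygote replicate 1 or heterozygote replicate 2 the number of higher factors was 3, 4 or 5, and it was 7 under library totals scaling.

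Adhesion and guidance genes had 10 of 38 lower and 7 higher (26.3% and 18.4%, against 18.7% and 9.92% of all genes tested). The number higher was 2 without heterozygote replicate 1 or homozygote replicate 1 and 3 under library totals scaling. side-III, a membrane protein of a family that guides motor axons, had 43.9 to 72.8 (median 52.3) CPM in homozygotes, against 284, 161 and 276 CPM in heterozygotes (log2 change −2.07, SE 0.15, adjusted p = 3.55e-06). Nrx-1, the presynaptic neurexin, changed by −1.33 and its ligand family member Nlg3 by −0.99. DIP-lambda, an immunoglobulin protein of synaptic recognition, had 6.92 to 23.9 (median 13.2) CPM in homozygotes and 10.5, 2.87 and 5.35 CPM in heterozygotes, which overlapped (log2 change 1.46, SE 0.29, adjusted p = 0.00378). Its highest heterozygote was replicate 1.

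Of 42 tested genes of second-messenger signalling 8 were lower and 6 higher (19.0% and 14.3%, against 18.7% and 9.92% of all genes tested), and the number higher was 3 without heterozygote replicate 2. Within 0.5 of 0 on the log2 scale lay 24 of the 42, against 7288 of all 10678. krz, an arrestin that ends receptor signalling, had 175 to 231 (median 212) CPM in homozygotes, against 707, 639 and 482 CPM in heterozygotes (log2 change −1.50, SE 0.12, adjusted p = 7.89e-06). Of the adenylyl cyclases on that list, which make cyclic AMP, Ac3 changed by −1.47 (adjusted p = 1.48e-05), Adcy2 by 1.18 (adjusted p = 0.00866) and ACXD by 1.10 (adjusted p = 0.00803; 0.95 and not called without heterozygote replicate 2), while Adcy8 and Ac13E were not called, at 0.88 and −0.05. Adcy2 had 42.4 to 61.5 (median 52.3) CPM in homozygotes, against 26.5, 11.6 and 29.2 CPM in heterozygotes, without overlap. The G protein alpha subunits Galphaq and Galphas were not called, at −0.09 and 0.22.

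Ionotropic receptors did not share the fall of the Or family. Of 15 tested tuning Ir genes 5 were higher and 2 lower (33.3% and 13.3%, against 9.92% and 18.7% of all genes tested), with a median log2 change of 0.55. The lower ones were HsIr308, at 3.37 to 7.53 (median 4.49) CPM in homozygotes, against 30.4, 8.51 and 9.04 CPM in heterozygotes (log2 change −1.27, adjusted p = 0.00166), and HsIr309, at 4.83 to 12.3 (median 6.49) CPM in homozygotes, against 31.9, 11.0 and 10.7 CPM in heterozygotes (log2 change −0.94, adjusted p = 0.00303). In each, heterozygote replicate 1 stood well above the other heterozygotes, and HsIr309 overlapped. HsIr75f.2 had 19.2 to 41.0 (median 31.7) CPM in homozygotes, against 18.3, 14.2 and 14.9 CPM in heterozygotes, without overlap (log2 change 0.92, adjusted p = 0.015), and was not called without heterozygote replicate 2 (0.83) or 3 (0.87). The number of higher tuning Ir genes was 1 to 3 without any 1 of the heterozygotes or without homozygote replicate 1, 3 or 4, and 2 under library totals scaling. It was 8 at an unadjusted p under 0.05 in edgeR and 7 in DESeq2, with 2 lower in each. Among the co-receptors, HsIr25a.2 was called at 0.63 (adjusted p = 0.0315), a call lost without any 1 of the heterozygotes or without homozygote replicate 1, 3 or 4 (0.52 to 0.73), while HsIr8a, HsIr25a.1 and HsIr76b were not, at 0.52, 0.67 and 0.13 (adjusted p = 0.0891, 0.0516 and 0.587). HsIr8a was called without homozygote replicate 5 (0.41), and HsIr25a.1 without homozygote replicate 6 (0.74) or 7 (0.75). Of the 4 co-receptors, 3 were higher and none lower at an unadjusted p under 0.05 in edgeR, and the counts were the same in DESeq2. Of 11 gustatory receptors 1 was higher (9.09%, against 9.92% of all genes tested). This was HsGr13 at 0.65 (adjusted p = 0.0334), a call lost without heterozygote replicate 1 or 2 or homozygote replicate 1, 4 or 7 (0.44 to 0.68). In edgeR none of 8 odorant-binding and chemosensory proteins was called, with 2 lower at an unadjusted p under 0.05 and 1 lower in DESeq2.

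Several of the largest falls outside the receptor families were in genes that carry no name of their own in the annotation. LOC112590016 had 0.0635 to 1.03 (median 0.132) CPM in homozygotes, against 40.7, 36.5 and 20.1 CPM in heterozygotes (log2 change −6.56, SE 0.54, adjusted p = 8.30e-06). LOC105189251 had 9.50 to 29.5 (median 12.1) CPM in homozygotes, against 263, 414 and 200.4 CPM in heterozygotes (log2 change −4.40, SE 0.35, adjusted p = 6.93e-06). In each the groups lay several-fold apart. LOC105187615, LOC109504413, LOC105189477 and LOC109504071 changed by −6.04, −5.90, −5.08 and −4.67, all without overlap. Among the 12 steepest of these falls, LPCAT and unpg carried gene names. LPCAT, an enzyme that re-acylates membrane phosphatidylcholine, had 21.2 to 52.5 (median 27.3) CPM in homozygotes, against 794, 505 and 428 CPM in heterozygotes (log2 change −3.98, SE 0.20, adjusted p = 5.79e-07).

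Some of the genes that fell take a large share of antennal reads. HnRNP-K, an RNA-binding protein, had 365 to 678 (median 461) CPM in homozygotes, against 3863, 2454 and 2207 CPM in heterozygotes (log2 change −2.32, SE 0.18, adjusted p = 5.47e-06). igl, a calmodulin-binding neuronal protein, had 601 to 1070.0 (median 753) CPM in homozygotes, against 3071, 2700.2 and 1856 CPM in heterozygotes (log2 change −1.60, SE 0.19). The unnamed LOC105186601 had 357 to 508 (median 407) CPM in homozygotes, against 2156, 1671 and 1680.4 CPM in heterozygotes (log2 change −2.14). None of these genes overlapped between the groups. Atpalpha, the catalytic subunit of the sodium pump, had 2397 to 3244 (median 2559.6) CPM in homozygotes and 4363, 7167 and 3724 CPM in heterozygotes, again without overlap and with heterozygote replicate 2 the highest library (log2 change −0.94, SE 0.22, adjusted p = 0.00924).

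**Figure D4:**
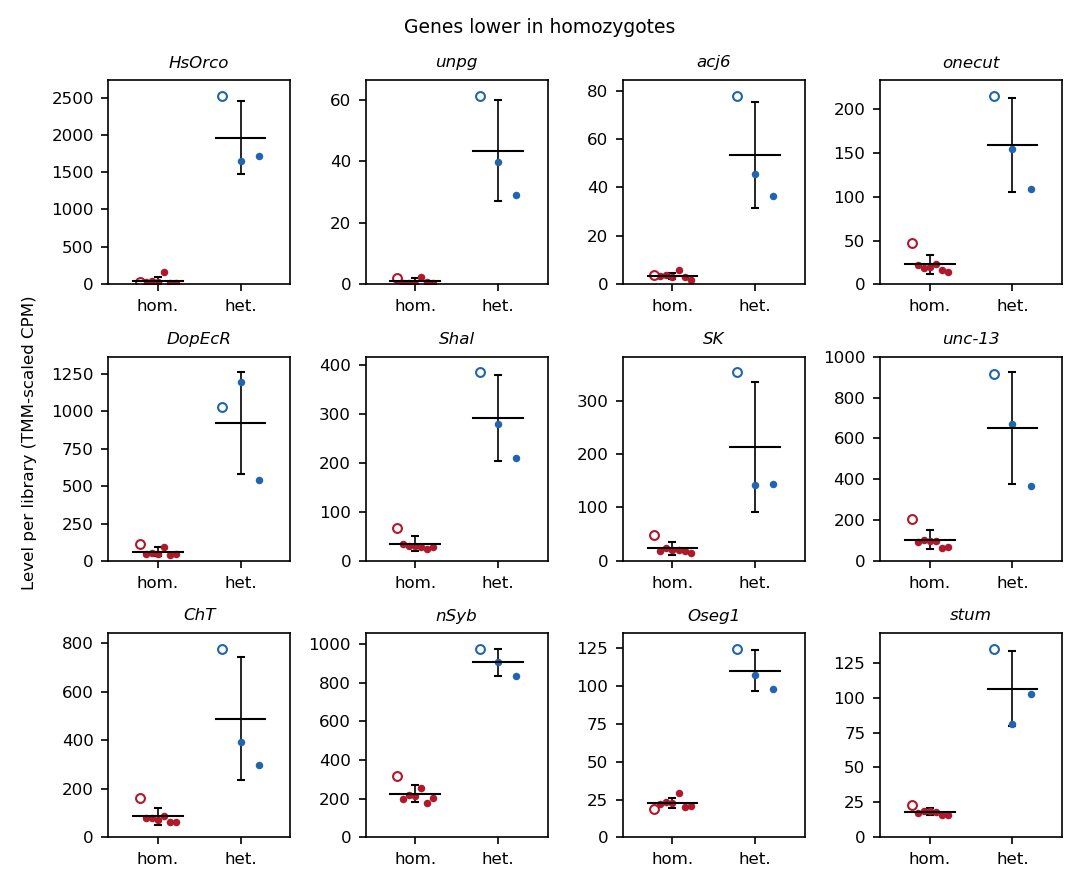
CPM (vertical axis, linear, scaled to each panel) of genes that were lower in homozygotes, by library, with homozygotes left of heterozygotes; open circles are batch 1 and filled circles batch 2 libraries, bars the mean and error bars the SD. In each panel the 7 homozygotes lie below the 3 heterozygotes.

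Rises were smaller and less steady across fits. Among the 87 higher and 83 lower genes chosen to be named, 18 of the higher and 77 of the lower kept their call in every alternative that used more than 6 libraries. IRSp53, which links the membrane to actin, was one of the 18, with 37.7 to 120.1 (median 51.4) CPM in homozygotes, against 36.8, 13.5 and 21.5 CPM in heterozygotes (log2 change 1.58, SE 0.22, adjusted p = 4.71e-04). So was the unnamed LOC105184195, with 9.16 to 17.8 (median 12.7) CPM in homozygotes, against 5.09, 1.91 and 3.85 CPM in heterozygotes (log2 change 1.95, SE 0.31, adjusted p = 0.00107). Neither gene overlapped, although the lowest homozygote of IRSp53 lay just above heterozygote replicate 1. Ppn, the extracellular matrix protein papilin, had 69.5 to 175 (median 115) CPM in homozygotes, against 39.6, 12.6 and 34.8 CPM in heterozygotes (log2 change 1.98, SE 0.47, adjusted p = 0.0105). The steepest rises without overlap were GC at 2.85 (adjusted p = 0.0177) and LOC105186440 at 3.21 (adjusted p = 0.0294); without heterozygote replicate 2 or 3 neither was called, at 2.42 and 3.04 for GC and 3.05 and 2.57 for LOC105186440.

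The higher genes with the most reads included an enzyme of the blood and proteins of cell junctions and matrix. PPO, the prophenoloxidase of melanization, had 1079 to 1409 (median 1308) CPM in homozygotes, against 808, 557 and 892 CPM in heterozygotes (log2 change 0.75, SE 0.17, adjusted p = 0.00962). by, a tensin of integrin junctions, had 927 to 1469 (median 1170.1) CPM in homozygotes, against 770.4, 401 and 691 CPM in heterozygotes (log2 change 1.01, SE 0.23, adjusted p = 0.00936). Neither overlapped. Idgf4, a secreted chitinase-like protein, had 855 to 2298 (median 1639) CPM in homozygotes and 619, 718 and 827 CPM in heterozygotes (log2 change 0.98, adjusted p = 0.0145), and was not called without heterozygote replicate 2 (0.83) or 3 (0.95).

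**Figure D5:**
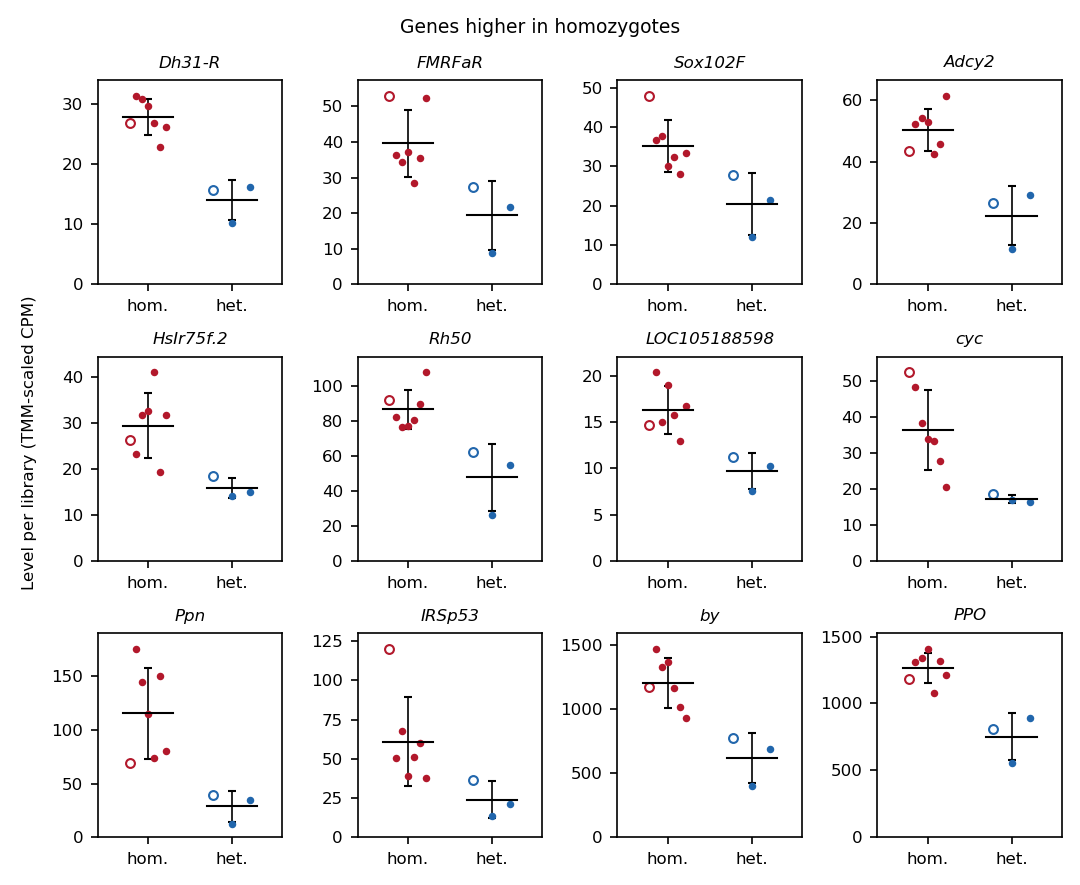
CPM (vertical axis, linear, scaled to each panel) of genes that were higher in homozygotes, by library, with homozygotes left of heterozygotes; open circles are batch 1 and filled circles batch 2 libraries, bars the mean and error bars the SD. The gap between the groups is narrower than for the fallen genes, as in PPO at 1079 CPM for the lowest homozygote and 892 CPM for the highest heterozygote.

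Markers of other antennal cells were measured beside these changes. The glial factor repo was at 132 to 178 (median 154) CPM in homozygotes and 113, 104.5 and 133 CPM in heterozygotes, overlapping and not called (log2 change 0.34, adjusted p = 0.0502), though it was called without heterozygote replicate 3 (0.44) or homozygote replicate 7 (0.37). Of 14 genes of glia and septate junctions 3 were higher and 1 lower (21.4% and 7.14%, against 9.92% and 18.7% of all genes tested). The number higher was 0 under library totals scaling and 0 or 1 without any 1 of the heterozygotes or without homozygote replicate 1, 3, 4 or 6. The lower one was Eaat2, a transporter of acidic amino acids, with 82.7 to 468 (median 106) CPM in homozygotes, against 1839, 1292 and 873 CPM in heterozygotes (log2 change −2.97, SE 0.29). Its highest homozygote was replicate 1. The support cell markers LOC105188530 and LOC105182650 were not called, at 0.03 and 0.19, while LOC105190591 was lower at −0.69 (adjusted p = 0.00231) and sv higher at 0.73 with overlapping groups. The epithelial factor grh had 21.9 to 65.7 (median 47.4) CPM in homozygotes and 16.8, 26.9 and 18.2 CPM in heterozygotes (log2 change 1.12, adjusted p = 0.0215), and was not called without heterozygote replicate 1 (1.10), heterozygote replicate 3 (0.95) or homozygote replicate 1 (1.07). Rh50, the ammonium transporter of ammonia-sensing neurons, had 76.3 to 108 (median 82.3) CPM in homozygotes, against 62.4, 26.3 and 54.5 CPM in heterozygotes (log2 change 0.95, adjusted p = 0.0108). The RNA-binding protein fne, present in all neurons, was at −0.48 (adjusted p = 0.061), and was called without homozygote replicate 1 (−0.70) or heterozygote replicate 1 (−0.66).

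The number of higher muscle genes varied with the fit. Summed over 21 tested sarcomere genes, homozygotes held 13857 to 28027 CPM (median 20198) and heterozygotes 17303, 4085 and 14002 CPM, with heterozygote replicate 2 far below all the others. Mhc, the myosin heavy chain of muscle, had 3074 to 8459 (median 5404) CPM in homozygotes and 4769.6, 597 and 3432 CPM in heterozygotes (log2 change 1.23, adjusted p = 0.104), and was called only without heterozygote replicate 3 (2.18) among the leave-one-out fits. The list had 8 genes higher (38.1%, against 9.92% of all genes tested) and none lower in edgeR, with a median of 1.01. At an unadjusted p under 0.05 it had 18 higher and none lower, and in DESeq2 20 higher and none lower. The number higher was 2 under library totals scaling, 2 with no batch term, 4 and 5 without homozygote replicates 3 and 6, 3 without heterozygote replicate 2 and 20 without heterozygote replicate 3, the library whose removal leaves heterozygote replicate 2 as the only batch 2 heterozygote. The part of this muscle difference in the other rises was not tested.

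Of 50 oxidative phosphorylation genes 49 lay within 0.5 of 0 on the log2 scale, 1 was lower and none higher in edgeR (2 each way at an unadjusted p under 0.05, 1 lower and 2 higher in DESeq2), and their median was 0.01, or −0.10 under library totals scaling. Ribosomal protein genes were slightly up, 12 of 58 higher (20.7%, against 9.92% of all genes tested) and none lower in edgeR with a median of 0.19 (22 higher and none lower at an unadjusted p under 0.05, 20 and none in DESeq2). However, none was higher under library totals scaling, 2 were without heterozygote replicate 2, and 4 to 7 were without heterozygote replicate 1 or homozygote replicate 1, 2, 4, 6 or 7. Of 35 genes of endoplasmic reticulum stress, 7 were lower (a share near the 18.7% of all genes tested) and none higher in edgeR (1 higher at an unadjusted p under 0.05 and in DESeq2), with a median of −0.18. Xbp1, a transcription factor of the unfolded protein response, fell furthest, at 266 to 460.0 (median 299.9) CPM in homozygotes, against 1741, 1269.8 and 1072 CPM in heterozygotes, without overlap (log2 change −1.95, SE 0.12, adjusted p = 1.49e-06). Ire1, the sensor that splices the Xbp1 transcript, and the chaperone Hsc70-3 were not called, at 0.07 and −0.51. Genes of apoptosis had 3 of 18 higher and 3 lower (16.7% each, against 9.92% and 18.7% of all genes tested), and 1 higher without heterozygote replicate 1 or 2 or homozygote replicate 1 or 6 and under library totals scaling. The death ligand egr had 79.7 to 101 (median 87.7) CPM in homozygotes, against 57.5, 61.2 and 60.0 CPM in heterozygotes, without overlap (log2 change 0.61, SE 0.09, adjusted p = 7.61e-04), and bsk, the JNK kinase that acts downstream of it in Drosophila, was lower at −0.76 (adjusted p = 0.00373).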

How the data were processed

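Adult antennal RNA was poly(A)-selected and sequenced in 12 libraries, of which the 7 homozygote and 3 heterozygote ones were compared. The authors aligned reads with STAR (2.6.1d in the submitters' processing notes) to the H. saltator genome with the HSAL60 annotation and deposited raw counts per gene, 1 table per library. STAR counts uniquely mapped reads only, so near-identical receptor copies are uncertain, and the unstranded column was used, so overlapping and antisense genes cannot be told apart. Lines that name no gene stayed out of library sizes and tests: unmapped reads were 1.92% to 6.53% of counted reads, multimapping reads 1.69% to 2.76%, reads outside genes 13.0% to 17.6% and ambiguous reads 2.29% to 3.48%. The authors' DESeq2-normalized table was not used. No per-sample column was left unmapped.

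A mean count of 10 over the 10 libraries was the minimum for testing. The test was edgeR 4.0.16 (quasi-likelihood, TMM scaling, R 4.3.3) with genotype and sequencing batch in the model. The study's methods state no per-gene test between these genotypes. Benjamini-Hochberg adjustment ran over every tested gene, and calls were made under 0.05. Each SE is the size of the log2 change over the square root of the F statistic, and CPM means carry the sample SD. Where no homozygote library passed 3 counts, the fold is a bound against 3 counts in every homozygote library. Counting error alone is covered by that floor. On simulated counts of this design the test recovered 93.7% of 189 genes changed by 2 on the log2 scale among 10620, and 4.84% of its calls were false. The simulation changed few genes, drew each direction at random and held no batch effect. In the data 28.6% of genes were called, with more falls than rises, and 2945 differed between batches. The simulated rates therefore cannot be taken as those of the data. No pair of libraries was a duplicate: counts within a genotype differed by a chi-square of at least 20.7 per gene. Since the labels do not say whether the libraries came from separate animals, p-values measure the spread between these libraries, which may be technical. Gene symbols came from RefSeq, which matched 13545 of 13602 LOC identifiers and named 4090.

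Genes were named by rule: orco, Ir co-receptors and cell type markers; the 12 steepest non-overlapping rises and falls outside the receptor families with at least 5 CPM; the 6 with the most reads in each direction; up to 4 called genes per list and direction by smallest p; and among tuning Or genes the 6 highest in heterozygotes and the 6 highest in homozygotes. Genes outside this rule were added from the lists after their values were seen. The comparison, the lists and the rule were chosen with earlier results of these data known. Alternatives were library totals scaling, DESeq2 1.42.0, other count minimums, no batch term, batch 2 alone, all 12 libraries, a replicate block and leaving out each library. Leaving out either batch 1 library leaves the genotype effect to batch 2, as the fit of batch 2 alone does.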

Additional observations from a re-analysis of the deposited data

Results flagged for a closer look

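A check for a homozygote far from the other 6 was run on 66 of the genes described here and on the 33 summed lists. Chance passes this check in about 1 of 20. Vgn, described under the other observations, was not among the 66. The check was passed in 26 of 99, of which 20 were homozygote replicate 1, 5 homozygote replicate 5 and 1 homozygote replicate 7.

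Among the genes and lists checked, homozygote replicate 1 lay above the other homozygotes in 15 genes and 5 lists. Its values were 87.2 CPM for Gad1 (next highest 0.0940), 29.7 CPM for VGlut (2.49), 50.2 CPM for unc80 (4.25) and 468 CPM for Eaat2 (175). They were 205 CPM for unc-13 (103), 163 CPM for ChT (88.9), 68.2 CPM for Shal (35.4), 49.3 CPM for SK (23.6) and 562 CPM for fne (287). Smaller gaps were seen at 120.1 CPM for IRSp53 (67.8), 3244 CPM for Atpalpha (2718), 23.5 CPM for stum (19.1), 18.9 CPM for Dhc98D (10.3), 12.3 CPM for HsIr309 (8.04) and 0.431 CPM for HsOr228 (0.147). For HsOr228 no homozygote library passed the floor of 3 counts, which is 0.646 CPM in homozygote replicate 1. Its gap therefore cannot be told apart from a difference in library depth. Summed over lists, homozygote replicate 1 held 5707 CPM for synaptic vesicle release (3891), 4161 CPM for neuronal ion channels (2806), 567 CPM for neuropeptides and their processing (346), 1394 CPM for transmitter and peptide receptors (801) and 5429 CPM for G protein, cyclic nucleotide, TRP and calcium signalling (4115). It is the only homozygote of batch 1 and the shallowest homozygote library, at 5.65 M counts; the part of either in these values was not tested.

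Homozygote replicate 5, the deepest library, stood above the others in 5 genes that were lower in homozygotes. It had 155 CPM of HsOrco (next highest 44.5), 0.564 CPM of HsOr30 (0.215), 1.03 CPM of LOC112590016 (0.215), 29.5 CPM of LOC105189251 (14.7) and 29.1 CPM of Oseg1 (23.2). Homozygote replicate 7 had the lowest summed Osiris family level, at 3.25 CPM (next lowest 5.17).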

How the results depend on the processing

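Against 3053 genes called, 2014 were called without heterozygote replicate 2, and over the libraries left out in turn the number ran between 2014 and 3120. Of the named genes, 68 of 83 lower calls and 7 of 87 higher calls held in every alternative. With a mean count of at least 50, 21 tuning Or genes were tested and 14 were lower, against 287 of 301, since fewer genes pass. Otherwise 233 to 351 tuning Or genes were lower. Higher and lower genes were 1059 and 1994, against 458 and 2334 under library totals, 1589 and 1948 in DESeq2, 563 and 1499 with no batch term, and 669 and 1734 in batch 2 alone. DESeq2 gave HsOrco no adjusted p. Same-numbered libraries deviated together in pair 1 only (correlations of 0.53, 0.004 and 0.07). Pair 1 is also the only pair from batch 1, so these values cannot tell whether the numbers pair the samples. With the replicate block, in the 6 libraries that share numbers, 1188 genes were called, 263 of them higher and 925 lower, against 1665 without the block in the same 6 libraries. Directions reversed for LOC105188530, at 0.03 in all 10 libraries, to −0.094 under library totals, −0.040 with and −0.039 without the replicate block in the 6 libraries, and in 2 of the leave-one-out fits, which ran between −0.034 and 0.069. They also reversed for Gad1 without heterozygote replicate 1 (leave-one-out range −0.77 to 5.92) and for HsOr202 without heterozygote replicate 3 (−0.57 to 0.087). The cause was not tested. With 3 heterozygotes, and 1 library per genotype in batch 1, small rises are the least certain results.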

Other observations

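Of 19 tested genes of hormone response and storage proteins 5 were higher and 3 lower (26.3% and 15.8%, against 9.92% and 18.7% of all genes tested). The number higher was 2 or 3 without any 1 of the heterozygotes or without homozygote replicate 1 or 6, and 3 under library totals scaling. The 3 lower genes code for nuclear receptors. Hr38, an orphan receptor induced by neuronal activity in insects, had 18.5 to 53.8 (median 31.1) CPM in homozygotes and 117, 48.8 and 68.4 CPM in heterozygotes (log2 change −1.12, SE 0.20, adjusted p = 0.00197 in edgeR's quasi-likelihood test). Hr3, an early ecdysone response gene, changed by −1.30 (adjusted p = 0.00143) and E75, another ecdysone response gene, by −0.62 (adjusted p = 0.0373), a call lost without heterozygote replicate 2 or 3 or homozygote replicate 2, 3, 4 or 7 (−0.62 to −0.47). Hr4 was higher at 1.25 (adjusted p = 5.04e-04). For Hr38, Hr3, E75 and Hr4 the groups overlapped. The ecdysone receptor Ecr and its partner usp were not called, at 0.07 and −0.19, nor was the nuclear receptor ftz-f1, at 0.09.

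In the circadian clock, cyc, a partner of the clock factor Clk, had 20.6 to 52.3 (median 33.7) CPM in homozygotes, against 18.5, 16.9 and 16.4 CPM in heterozygotes, without overlap (log2 change 1.13, SE 0.24, adjusted p = 0.00568), and its call held in every fit. Its partner Clk was at −0.08 and not called. per, the repressor of the loop, changed by 1.21 (adjusted p = 0.0124) with overlapping groups and was not called without heterozygote replicate 2 (1.14). The labels used here do not give the hour of sampling.

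Of 21 genes of lipid synthesis and storage, 5 were higher and 1 lower (23.8% and 4.76%, against 9.92% and 18.7% of all genes tested). The number higher was 0 without heterozygote replicate 2, 1 to 3 without heterozygote replicate 1 or 3 or homozygote replicate 1, 2, 3 or 4, and 1 under library totals scaling. The lipophorin gene apolpp, which carries lipid in the blood, had 123 to 483 (median 382) CPM in homozygotes and 45.9, 52.0 and 158 CPM in heterozygotes (log2 change 1.75, SE 0.54, adjusted p = 0.0351), overlapping, and its call was lost without heterozygote replicate 1 or 2 or homozygote replicate 1, 2, 3, 4 or 6 (1.40 to 1.73). Vgn, a vitellogenin-named gene, was at 36.8 CPM in homozygote replicate 1 and at most 0.198 CPM in the other homozygotes, and at 8.79, 0 and 0 CPM in heterozygotes, so that it was above 1 CPM in the batch 1 library of each genotype alone. Of 8 apical matrix genes 2 were higher (25%, against 9.92% of all genes tested). These were dpy and pio, zona pellucida proteins that anchor epithelia to cuticle, at 1.31 (adjusted p = 0.00248) and 0.78 (adjusted p = 0.00513).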
